A study of Mus musculus with 4 samples.

Results

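Caveolins, cavins, and the ATPase Ehd2 are the structural genes of caveolae, and 6 of them (Cav1, Cav2, Cavin1, Cavin2, Cavin3, and Ehd2) were followed through 3 mouse cell lines. They were taken by gene symbol from the 33565 genes listed in every matrix. The set was chosen with earlier results of these data known. The lines were Neuro-2a (N2a), a neuroblastoma line, NIH/3T3, an embryonic fibroblast line, and mouse embryonic stem cells (mESCs) of the E14TG2a line. N2a and NIH/3T3 cells had been grown in DMEM with 10% FBS and penicillin-streptomycin, and mESCs on gelatin with 15% FBS, 1000 U/ml leukemia inhibitory factor, 3 μM CHIR99021, and 1 μM PD0325901. All of them went through 1 CapSeq experiment, a split-pool single-cell method in which the first barcode segment (BC1) marks the plate position and hence the line. No line had a replicate, so no test between lines was made.

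Cells had to have 1000 UMIs or more, of which no more than 20% were mitochondrial, which left 2323 N2a cells, 2037 NIH/3T3 cells, and 2137 mESCs. Their median depth was 6185, 4863, and 4803 UMIs in this order, and their UMIs summed to 17955221, 11697865, and 12322098. A level is the share of a gene in all UMIs of the cells of a line, given as CPM (counts per 1e6 UMIs). Intervals are exact 95% intervals (Poisson for levels, binomial for shares, conditional for ratios) and take in no error other than that of counting. For a count of 0 the upper limit of this interval is 0.205 CPM (N2a), 0.315 CPM (NIH/3T3), and 0.299 CPM (mESCs). No barcode was shared between the matrices of any pair of lines (0 barcodes). The split by BC1 fixes this in advance, so it does not check how reads were assigned to lines. The identity genes followed the labels in part. N2a had 404.2 CPM of Hand2, a sympathetic lineage factor, but only 4.96 CPM of Th, the enzyme that starts catecholamine synthesis. The mESCs had 1318 CPM of Zfp42 and 57.8 CPM of Pou5f1, the pluripotency factor.

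Caveolae are small flask-shaped pits of the plasma membrane, abundant in fibroblasts, adipocytes, endothelium, and muscle. Caveolins are hairpin proteins inserted in the inner leaflet, and cavins are cytoplasmic coat proteins that assemble on them, with Cavin1 needed for the coat to form. Ehd2 sits at the neck and holds the pit at the membrane, and caveolae flatten when the membrane is stretched.

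The genes lie at 5 places in the genome (GRCm39). Cav2 (ENSMUSG00000000058, chr6:17281026-17289877) and Cav1 (ENSMUSG00000007655, chr6:17306140-17341451) are neighbors on the plus strand, 16262 bases apart. The gap holds 0 annotated genes that lie wholly within it, but Gm15581, on the opposite strand, spans it. Cavin1 (ENSMUSG00000004044) is at chr11:100847559-100861713 on the minus strand, and Cavin2 (ENSMUSG00000045954) at chr1:51328266-51345710 on the plus strand. Cavin3 (ENSMUSG00000037060, chr7:105128391-105131507) and Ehd2 (ENSMUSG00000074364, chr7:15680874-15701629) are both on the minus strand of chromosome 7, far from each other.

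The promoters were searched because most of these genes shared one pattern across the lines while Cavin2 did not. The window was the 250 bases before the start of the canonical transcript, both strands were read, and 21303 windows of protein-coding genes served as background. CCAAT was present in 4 of the 6 windows, those of Cav1, Cav2, Cavin1, and Cavin2, and in 36.5% of all windows. TATAAA was found in Cav1 only, at position -27 from the start, against 11.9% of all windows. GGGCGG was found in Cav2, Cavin3, and Ehd2 (36.5%), TGANTCA in Cav2 (6.16%), and GGAATG in Cavin3 (12.1%), where it overlaps a GGGCGG match. The windows printed are those of Cav1, the caveolin that non-muscle caveolae need, of Cavin1, its obligatory coat protein, and of Cavin2, the member that departed from the others. Each is written 5′ to 3′ on the strand of its gene, with the searched letters in capitals.
Cav1 (chr6:17305890-17306139, plus strand): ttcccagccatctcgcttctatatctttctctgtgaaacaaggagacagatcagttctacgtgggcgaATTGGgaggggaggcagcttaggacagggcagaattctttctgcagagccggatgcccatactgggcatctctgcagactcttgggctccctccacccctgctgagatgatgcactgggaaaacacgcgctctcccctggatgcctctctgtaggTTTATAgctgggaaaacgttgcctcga
Cavin1 (chr11:100861714-100861963, minus strand): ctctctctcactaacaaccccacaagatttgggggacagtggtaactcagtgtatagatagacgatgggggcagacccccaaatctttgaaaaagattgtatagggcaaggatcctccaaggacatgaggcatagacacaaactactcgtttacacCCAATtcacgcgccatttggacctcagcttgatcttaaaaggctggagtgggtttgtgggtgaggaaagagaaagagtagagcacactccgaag
Cavin2 (chr1:51328016-51328265, plus strand): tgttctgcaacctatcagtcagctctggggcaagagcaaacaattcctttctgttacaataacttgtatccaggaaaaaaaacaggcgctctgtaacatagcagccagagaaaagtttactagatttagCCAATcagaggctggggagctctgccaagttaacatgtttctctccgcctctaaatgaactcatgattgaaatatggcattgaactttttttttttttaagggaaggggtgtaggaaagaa
In Cav1, CCAAT reads on the opposite strand, as attgg, at position -182, and the TATAAA match is also on the opposite strand. In Cavin1 and Cavin2 it reads along the gene, at positions -94 and -121. A match describes letters in the window and says nothing of a factor bound there.

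The 6 genes were detected together in NIH/3T3 and nearly absent from mESCs, and N2a carried Cavin2, and Ehd2 at a low level, with the caveolins near 0. Summed over the 6 genes, the level was 907.0 CPM in NIH/3T3 (889.8 to 924.4), 73.5 CPM in N2a (69.5 to 77.5), and 11.7 CPM in mESCs (9.86 to 13.8). NIH/3T3 was 12.3-fold above N2a (11.7 to 13.1) and 77.6-fold above mESCs (65.8 to 92.1). With at least 4-fold in CPM + 1 as the limit, 6 of the 6 genes were higher in NIH/3T3 than in mESCs, where 9.88% of all 13000 genes tested (at least 5 CPM in at least 1 line) were. Against N2a, 5 of the 6 were, and 9.25% of all genes. Against both lines it was 5 of 6 and 5.32%. The median log2 fold over the higher of the other lines was 5.09 for the 6 genes and -0.44 for all genes tested.

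**Figure D1:**
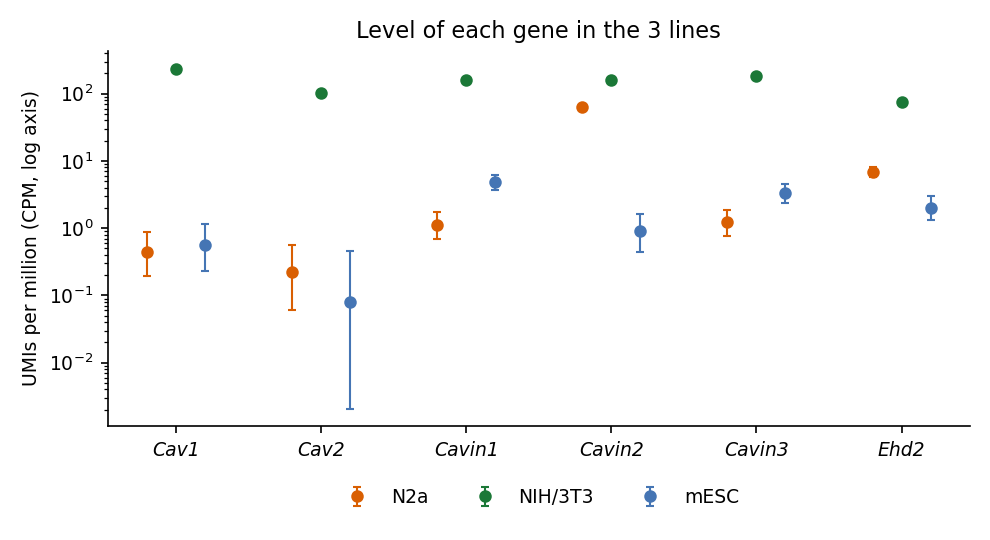
Level of the 6 genes in each line, in CPM on a log axis, with exact 95% Poisson intervals of the summed UMIs. Each line was 1 sample within 1 shared library. NIH/3T3 is highest for every gene, and only Cavin2 has an N2a level (63.6 CPM) near the NIH/3T3 level (157.9 CPM).

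Of the caveolins, Cav1, the main scaffold of the pit, had 233.4 CPM in NIH/3T3 (224.7 to 242.3; 2730 UMIs). It had 0.446 CPM in N2a (8 UMIs) and 0.568 CPM in mESCs (7 UMIs). NIH/3T3 was 523.8-fold above N2a (265.5 to 1214) and 410.8-fold above mESCs (199.1 to 1023). N2a and mESCs did not differ beyond counting error, with a ratio of 0.784 (0.249 to 2.54). Cav2, which joins Cav1 in mixed oligomers, had 100.6 CPM in NIH/3T3 (94.9 to 106.5), 0.223 CPM in N2a (4 UMIs), and 0.0812 CPM in mESCs (1 UMI). The ratio to N2a was 451.6 (175.9 to 1660), and that to mESCs, resting on a single UMI, was 1240 (222.1 to 49011). Cav3, the muscle caveolin, had 0 UMIs in NIH/3T3 and in mESCs and 0.167 CPM in N2a (3 UMIs).

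Of the cavins, Cavin1, the coat protein that all caveolae need, had 158.2 CPM in NIH/3T3 (151.1 to 165.6), 1.11 CPM in N2a (0.680 to 1.72), and 4.79 CPM in mESCs (3.64 to 6.18). Here mESCs were above N2a, by 4.30-fold (2.55 to 7.54). Cavin3, which binds protein kinase C, followed the same order, with 182.3 CPM in NIH/3T3 (174.7 to 190.2), 1.23 CPM in N2a, and 3.33 CPM in mESCs. Its level in mESCs was 2.72-fold that in N2a (1.58 to 4.79).

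Cavin2, a membrane-curving cavin also called serum deprivation response protein, had another order. It had 157.9 CPM in NIH/3T3 (150.8 to 165.3; 1847 UMIs), 63.6 CPM in N2a (60.0 to 67.4; 1142 UMIs), and 0.893 CPM in mESCs (0.446 to 1.60; 11 UMIs). NIH/3T3 exceeded N2a only 2.48-fold (2.30 to 2.67), while N2a exceeded mESCs 71.2-fold (39.7 to 143.1). Cavin2 was the only one of the 6 at least 4-fold higher in N2a than in mESCs, a limit that 10.5% of all genes tested passed. Ehd2, the ATPase at the neck, lay between these patterns: 74.5 CPM in NIH/3T3 (69.7 to 79.7), 6.85 CPM in N2a (5.69 to 8.17), and 2.03 CPM in mESCs (1.31 to 3.00). N2a was 3.38-fold above mESCs for Ehd2 (2.18 to 5.42).

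The makeup of the set therefore differed between the lines. Cavin2 held 86.6% of the UMIs of the 6 genes in N2a (84.6% to 88.4%) and 17.4% in NIH/3T3 (16.7% to 18.1%). Cav1 held 25.7% in NIH/3T3 and 0.607% in N2a. In mESCs, with 144 UMIs in all, Cavin1 held 41.0% (32.9% to 49.5%) and Cavin3 28.5% (21.3% to 36.6%).

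UMIs of a fibroblast transcript can be counted in another line, so the levels were set beside those of the NIH/3T3 fibroblast markers. Col1a2, a fibrillar collagen chain, had 460.6 CPM in NIH/3T3, and 0.169% of that level in N2a and 0.194% in mESCs. Prrx1, a mesenchymal homeobox factor, had 622.4 CPM, and 0.0805% and 0.130%. All 10 markers together reached 0.833% of their NIH/3T3 level in N2a and 1.47% in mESCs. Of the 10, 7 were at least 4-fold higher in NIH/3T3 than in both lines, beside 5.32% of all genes tested. Cav1 in N2a stood at 0.191% of its NIH/3T3 level (0.0823% to 0.377%) and in mESCs at 0.243% (0.0978% to 0.502%). Whether these few UMIs came from the cells themselves was not tested. Cav2 was at 0.221% and 0.0807%. Cavin1 in N2a was at 0.704% and Cavin3 at 0.672%, whereas in mESCs they were at 3.03% (2.29% to 3.92%) and 1.82% (1.31% to 2.48%). In mESCs the 10 markers ranged from 0% to 62.0% of their NIH/3T3 level, with a median of 2.71%. Of the 250 UMIs of these markers in mESCs, 90 were of Pdgfrb and 64 of Fbn1, so their sum there largely follows these genes. Cavin2 in N2a was at 40.3% (37.4% to 43.4%) and Ehd2 at 9.19% (7.55% to 11.1%), and the 10 markers ranged from 0% to 34.4% of their NIH/3T3 level in N2a, with a median of 0.255%. Of the markers, Pdgfrb (34.4%) and Fbn1 (13.3%) were above Ehd2, and none was above Cavin2. The 667 N2a cells with a Cavin2 UMI had 9.12 CPM of the 10 fibroblast markers (7.07 to 11.6). The 1656 without one had 13.1 CPM (11.01 to 15.5). Median depth was 9135 UMIs in the former and 5168 in the latter. Of the 206 UMIs of these markers in N2a, 135 were of Pdgfrb, so their sums there largely follow 1 gene. Whether the Cavin2 UMIs of N2a came from NIH/3T3 cells was not tested. Markers of other cell types rich in caveolae were low in NIH/3T3: 1.45 CPM for Cdh5 of endothelium, 0 UMIs for Myod1 and Myog of muscle, and 0.0855 CPM for Adipoq of adipocytes.

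Barcodes with under 100 UMIs, whose origin (free RNA or poor cells) was not tested, also held these genes. In NIH/3T3 their level was 278.0 CPM for Cavin1 (250.7 to 307.5), above the 158.2 CPM of cells, and 190.5 CPM for Cav1 (168.0 to 215.2), below the 233.4 CPM of cells. In N2a they had 79.1 CPM of Cavin2 (66.8 to 93.0). In mESCs they had 10.5 CPM of Cavin1, from 11 UMIs.

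In single cells the same contrast appeared as shares of cells with at least 1 UMI. Any of the 6 genes was seen in 92.7% of NIH/3T3 cells (91.5% to 93.8%), 32.7% of N2a cells (30.8% to 34.6%), and 6.22% of mESCs (5.24% to 7.33%). Cav1 was seen in 61.5% of NIH/3T3 cells, against 0.344% of N2a cells and 0.328% of mESCs. Cavin3 reached 55.5% of NIH/3T3 cells, Cavin1 52.6%, Cavin2 44.0%, Cav2 37.4%, and Ehd2 32.6%. In N2a, Cavin2 was seen in 28.7% of cells (26.9% to 30.6%) and Ehd2 in 4.78% (3.95% to 5.73%), whereas Cav1, Cav2, Cavin1, and Cavin3 were each in at most 0.818%. In mESCs, Cavin1 was seen in 2.57% of cells, Cavin3 in 1.87%, and Ehd2 in 1.12%. N2a cells were deeper than NIH/3T3 cells, so each cell was also thinned to 1000 UMIs, which left out no cell. The shares for any of the 6 genes were then 56.1% (NIH/3T3), 6.46% (N2a), and 1.36% (mESCs). Cav1 fell to 19.5% in NIH/3T3 and to 0 cells in the other lines, with exact upper bounds of 0.159% of N2a cells and 0.172% of mESCs for a UMI at this depth. Cavin2 was at 12.8% in NIH/3T3 (11.4% to 14.3%) and 5.64% in N2a (4.74% to 6.66%).

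**Figure D2:**
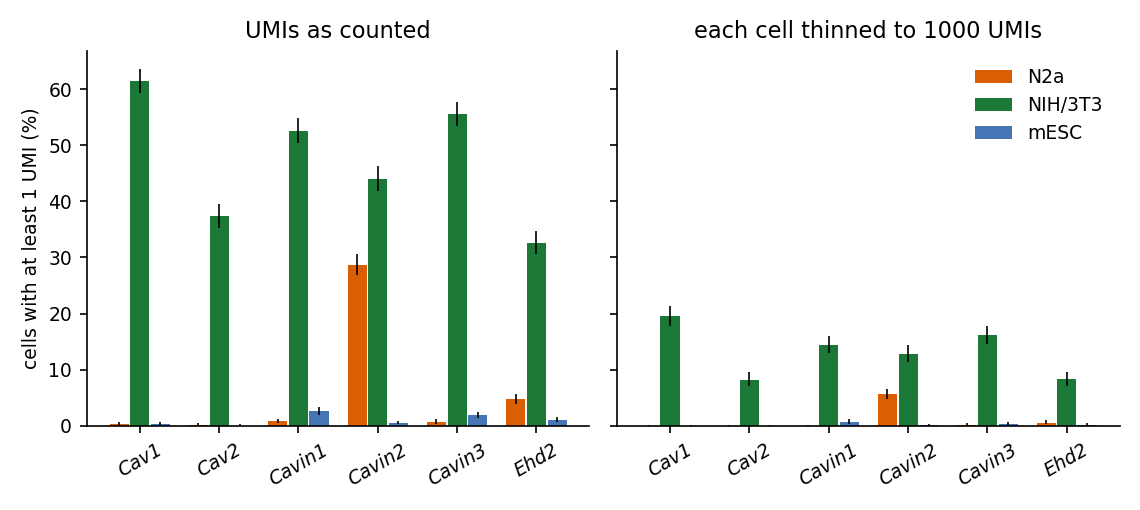
Share of cells with at least 1 UMI of each gene, as counted (left) and after each cell was thinned to 1000 UMIs (right), with exact 95% binomial intervals. Cavin2 is the only gene with a tall N2a bar, at 28.7% as counted and 5.64% after thinning.

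A NIH/3T3 cell carried a median of 3 of the 6 genes. All 6 were seen in 4.22% of NIH/3T3 cells and none in 7.31%. Of the N2a cells, 67.3% had none and 0.129% had 3 or more. Of the mESCs, 93.8% had none. After thinning, Cavin3 was found in 21.1% of the 398 NIH/3T3 cells with Cav1 (17.2% to 25.4%) and in 15.0% of the 1639 without (13.3% to 16.8%). Cav2 was found in 10.8% (7.93% to 14.3%) and 7.63% (6.39% to 9.02%), with overlapping intervals. For Cavin1, Cavin2, and Ehd2 the shares were 14.8% and 14.4%, 11.6% and 13.1%, and 9.55% and 7.99%, each pair with overlapping intervals. The thinned variance over mean was 1.06 for Cav1, 1.09 for Cav2, 1.02 for Cavin1, 1.09 for Cavin2, 1.04 for Cavin3, and 0.961 for Ehd2. For the 4698 genes with at least 50 CPM in NIH/3T3 the median was 1.03, with quartiles of 1.01 and 1.07, so Cav2 and Cavin2 lay above the upper quartile. N2a Cavin2 was also above it, at 1.09 against quartiles of 1.01 and 1.07.

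The plate positions gave a check within each line, since each line occupied 32 BC1 sequences. These are wells of 1 library and not replicates. Cav1 ranged from 178.6 to 293.6 CPM (median 228.9) over the 32 wells of NIH/3T3, and in N2a it reached at most 3.04 CPM, and 25 wells had none. Cavin2 ranged from 91.1 to 220.5 CPM in NIH/3T3 (median 153.3) and from 34.2 to 89.2 CPM in N2a (median 63.3). No N2a well was without Cavin2. The lowest NIH/3T3 well, at 91.1 CPM from 22 UMIs, was just above the highest N2a well, at 89.2 CPM from 64 UMIs. How many of all genes have wells that do not overlap was not counted. In mESCs, Cavin2 was absent from 23 of the 32 wells and reached at most 4.56 CPM. Cavin1 in mESCs was absent from 7 wells and had a median of 3.62 CPM. Ehd2 in N2a was absent from 1 well and had a median of 6.86 CPM.

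**Figure D3:**
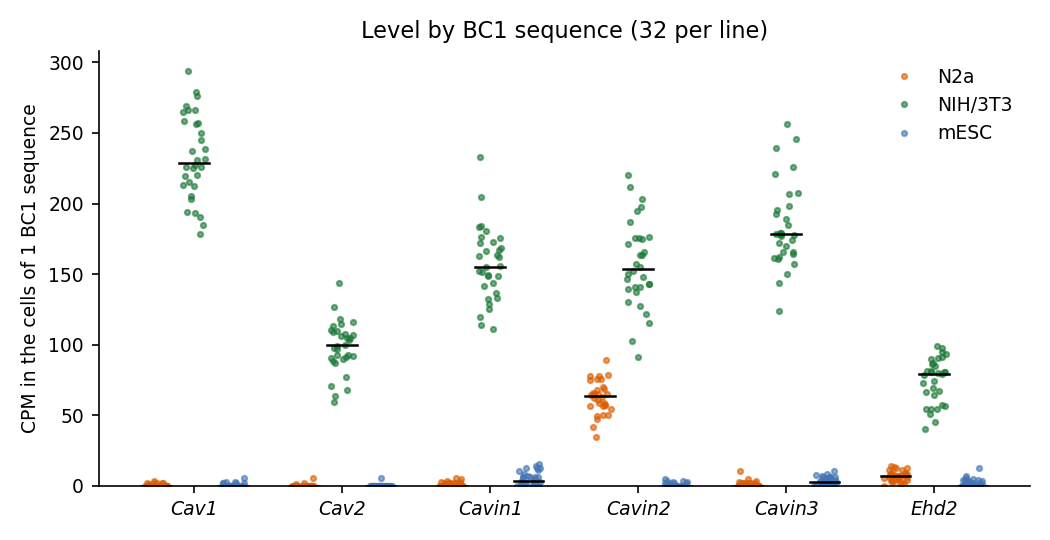
Level of each gene in the cells of each BC1 sequence, 32 per line, in CPM; points are BC1 sequences and bars are medians. For Cavin2 the N2a points (34.2 to 89.2 CPM) lie just under the NIH/3T3 points (91.1 to 220.5 CPM), and for the other genes NIH/3T3 lies far above both other lines.

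Among NIH/3T3 cells, Cavin2 departed from the other genes. These cells were clustered on their variable genes with the 6 genes left out, which gave 4 clusters, described here without a test because the clusters and the levels come from the same cells. Cluster 1 (723 cells) was led by Inhba and Tspan2. Cluster 2 (618 cells, 30.3%) was led by Nlgn1, a synaptic adhesion gene, with 661.1 CPM against 6.02 in the other cells, and by Grb14. Cluster 3 (468 cells) was led by histone genes such as H1f3, and cluster 4 (228 cells) by the mitotic genes Gas2l3 and Ube2c.

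Cavin2 was highest in the Nlgn1-led cluster, while the caveolins were lowest there. Cavin2 had 101.0 CPM in cluster 1, 254.4 in cluster 2 (239.1 to 270.5), 119.2 in cluster 3, and 97.3 in cluster 4. Cluster 2 stood 2.38-fold above the other NIH/3T3 cells (2.17 to 2.62). Cav1 had 294.1 CPM in cluster 1, 173.0 in cluster 2 (160.4 to 186.3), 254.2 in cluster 3, and 224.7 in cluster 4, so cluster 2 had 0.652 of the level of the other cells (0.597 to 0.711). Cav2 had 0.583 of it (0.508 to 0.668), with 68.6 against 117.6 CPM. Cavin3 had 0.756 (0.687 to 0.831) and Ehd2 0.775 (0.667 to 0.899). Cavin1 was level across the clusters, from 140.6 to 168.8 CPM, with a ratio of 1.02 in cluster 2 (0.927 to 1.12). Summed over the 6 genes, the level was 869.7 CPM in cluster 2 and 926.8 CPM in the other cells, a ratio of 0.938 (0.901 to 0.977).

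**Figure D4:**
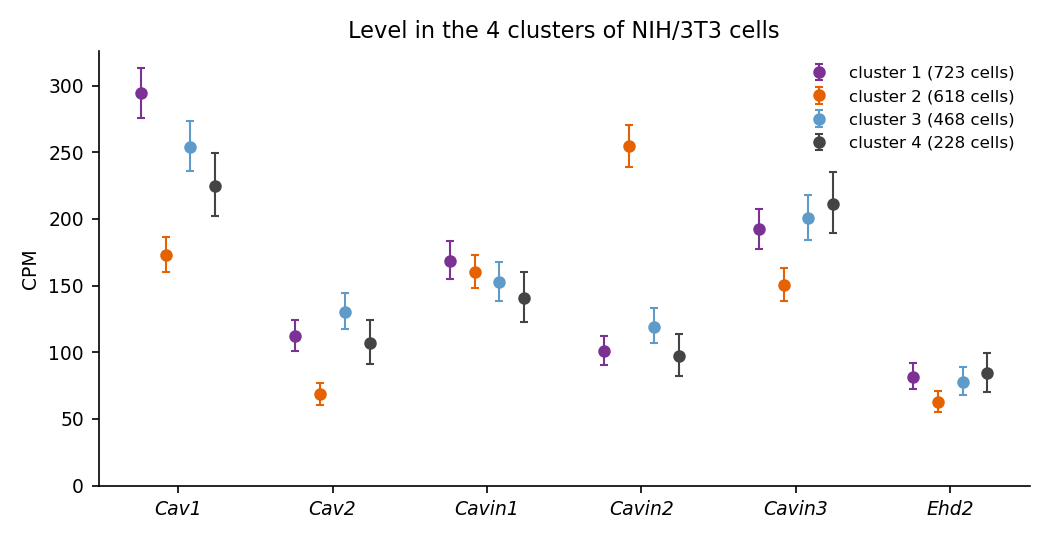
Level of each gene in the 4 clusters of NIH/3T3 cells, in CPM from 0, with exact 95% Poisson intervals. Cluster 2, led by Nlgn1, is highest for Cavin2 (254.4 CPM) and lowest for Cav1 (173.0 CPM) and Cav2 (68.6 CPM), and Cavin1 differs little between clusters.

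The cells of cluster 2 bore the identity of NIH/3T3. They had 413.6 CPM of Col1a2 and 743.1 CPM of Prrx1 with 0.247 CPM of the N2a gene Hand2 and 0.740 CPM of Chga. Every BC1 sequence held them, at 18.4% to 39.6% of its NIH/3T3 cells, and their median depth was 5514 UMIs. A block of 7 genes on chromosome 14 (Gpc6 to Uggt2), already known from these data to be low in part of the NIH/3T3 cells, had 13.6 CPM in cluster 2 and 251.6 CPM in the others. Leaving cluster 2 out, Cavin2 in NIH/3T3 was 106.7 CPM, only 1.68-fold above N2a (1.53 to 1.84), whereas cluster 2 alone was 4.00-fold above it (3.67 to 4.36). Without cluster 2, Cav1 was 595.6-fold and Cavin1 141.0-fold above N2a.

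Cells were also split by a list of 14 G2/M genes after thinning, into 980 cells with at least 3 UMIs of the list and 382 with 0. Cav1 had 209.1 CPM in the former and 294.8 in the latter, a ratio of 0.709 (0.642 to 0.784). The ratio was 0.736 within cluster 1 (0.614 to 0.880), 0.726 within cluster 2 (0.587 to 0.903), and 0.884 within cluster 3 (0.690 to 1.15), and cluster 4 had only 2 cells with 0 UMIs of the list. Cavin2 gave 1.26 over all cells (1.09 to 1.45), but 1.03 within cluster 1 (0.760 to 1.40), 1.29 within cluster 2 (1.05 to 1.60), and 0.827 within cluster 3 (0.570 to 1.23). Cavin3 gave 1.17 (1.03 to 1.33) and Ehd2 0.830 (0.693 to 0.997). For Cav2 and Cavin1 the intervals held 1 over all cells, with ratios of 1.09 and 0.979. Within cluster 2, Cav2 gave 1.69 (1.11 to 2.68) and Cavin3 1.45 (1.09 to 1.96), and within clusters 1 and 3 the intervals of both held 1. When NIH/3T3 cells were cut into 3 equal parts by depth, and the deepest part was set over the shallowest, Cav1 gave 0.972 (0.867 to 1.09) and Cavin2 1.18 (1.02 to 1.37).

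In N2a, Cavin2 was present in every cluster. N2a cells formed 3 clusters with 79.2 CPM (72.5 to 86.3), 49.5 CPM (44.4 to 55.1), and 62.3 CPM (55.3 to 70.0) of Cavin2, in 844, 745, and 734 cells. Cav1 was at most 0.761 CPM in any of them. Cells with at least 3 UMIs of the G2/M list had 1.04 times the Cavin2 level of cells with 0 (0.894 to 1.22).

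The genes whose levels lay closest over the 3 lines were found by the Euclidean distance in log2(CPM + 1), which rests on 3 points. For Cav1 they were Pla2g4a (0.23) and Col8a1 (0.23), and for Cav2 Gm48370 (0.07) and Osr1 (0.11). Cavin1 and Cavin3 shared Msln (0.32 and 0.51) and 4930467D21Rik (0.55 and 0.75), and lay 0.47 from each other. Cavin2 was closest to Ets1 (0.29), with 189.9 CPM in NIH/3T3, 64.5 CPM in N2a, and 1.06 CPM in mESCs, and to Gsn (0.75), and its nearest member, Ehd2, was 3.29 away. Ehd2 was closest to Inf2 (0.36) and Fxyd5 (0.40).

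Other genes tied to caveolae were spread over all lines. Of a list of 14, 11 could be tested, of which 2 were at least 4-fold higher in NIH/3T3 than in N2a (Pacsin3 and Ror1), beside 9.25% of all genes tested. The median log2 fold of NIH/3T3 over the higher of the other lines was -0.08, and -0.44 over all genes. Ror1, a receptor tyrosine kinase that holds Cavin1 and Cav1 together, was the only one higher than in both lines (5.32% of all genes were), with 87.5 CPM in NIH/3T3, 0.278 in N2a, and 8.60 in mESCs. Pacsin2, a membrane-bending protein of the caveola neck, had 178.7, 244.8, and 97.8 CPM, and Dnm2, a dynamin that cuts vesicles free, had 97.7, 130.3, and 163.4 CPM. Ehd1, a relative of Ehd2 from endosomes, had 107.4, 41.5, and 99.5 CPM, all in the order NIH/3T3, N2a, and mESCs. Cavin4, the muscle cavin, was highest in mESCs, at 30.4 CPM (374 UMIs) against 11.5 in N2a and 6.84 in NIH/3T3.

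Genes of the Yap and Srf pathways, which respond to tension at the membrane and in the cytoskeleton, were also counted. Of 13 tested, 8 were at least 4-fold higher in NIH/3T3 than in N2a, beside 9.25% of all genes tested. Of these, 1 (Ankrd1) was higher than in both lines (71.6 CPM against 0.0557 in N2a and 0.162 in mESCs), beside 5.32% of all genes. Srf and its cofactors Mrtfa and Mrtfb, and Tead1 and Tead3, were within the limit in both comparisons. Yap1, the coactivator of the Hippo pathway, had 77.0 CPM in NIH/3T3, 0.947 in N2a, and 146.1 in mESCs. Its paralog Wwtr1 had 203.2, 2.23, and 106.3 CPM. Their DNA-binding partner Tead1 had 318.3, 278.5, and 686.8 CPM, and Mrtfa, a cofactor of Srf, had 175.2, 137.6, and 66.9 CPM, in the same order.

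Antisense transcripts overlap several of these genes, and whether counting used the strand is not given in the sources used here. Gm15581, which spans Cav1 and Cav2 on the opposite strand, had 20.9 CPM in NIH/3T3 (18.4 to 23.7), 0.0557 CPM in N2a, and 0.243 CPM in mESCs. Over Cavin2, 9330175M20Rik had 2.22 CPM in NIH/3T3 and 1.00 CPM in N2a, and Gm57383 over Cavin1 had 1.88 CPM in NIH/3T3 and 0 UMIs in the others. Gm45667 and Gm36847, opposite Cavin3, and Gm68216, opposite Cav1, were not among the genes listed in the matrices, so they have no level. The part of all these transcripts in the counts of the 6 genes was not tested.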

How the data were processed

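RNA of single cells was measured by CapSeq in N2a, NIH/3T3, and mESC cells, 1 library in all. The authors split reads by BC1, trimmed the TSO, and ran STARsolo against the GRCm39 genome and GENCODE M30 annotation. They deposited unnormalized UMI counts, with genes as rows and every barcode as a column, in 4 matrices (pooled, and 1 per line) without a cell filter. The strand setting is not given in the sources used here.

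Here, cells were filtered at 1000 UMIs and 20% mitochondrial UMIs. UMIs were summed per line and divided by the total (CPM). Folds between lines used CPM + 1 and genes with at least 5 CPM in a line. No doublet caller was run, and an alternative left out the deepest 5% of cells. For clusters, the normalization, the number of variable genes (150, without the 6 members), and the neighbor graph (100 neighbors) followed the study's methods, except that Scanpy 1.11.5 chose variable genes with its seurat flavor. Leiden clustering at a resolution of 0.5 was added here. Depth was 20662884 UMIs in the N2a matrix, 13505027 in NIH/3T3, and 13875356 in mESCs. Positions were read from GENCODE M39 (same build), which holds 32953 of the 33565 identifiers. Ratios were tested on simulated counts, and thinning was checked on the filtered NIH/3T3 cells. Python 3.11.15, numpy 2.4.6, scipy 1.17.1, and pandas 2.3.3 were used.

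The members and gene lists were chosen with earlier results of these data known. Named genes were the members, the highest genes of each list, and the 2 nearest non-members of each member. Ankrd1, Cav3, Cavin4, Pacsin3, Pdgfrb, Fbn1, the other cell type markers given, the antisense transcripts, and the cluster genes were named after their values were seen. Alternatives changed the cell filter, the scaling, the depth, the pseudocount, the fold, and the filter on low values. Another counted the same barcodes in the pooled matrix. Some genes of the N2a marker list are not reported here.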

Additional observations from a re-analysis of the deposited data

Results flagged for a closer look

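The pooled matrix, which the main comparisons between lines did not use, held 326 UMIs of the 6 genes that were absent from the 3 matrices split by BC1. They were 2.27% of its 14364 UMIs of these genes (exact binomial interval 2.03% to 2.53%), beside 2.32% over all genes. By gene, the share ranged from 1.64% for Cav2 to 2.90% for Cav1. These UMIs were flagged because they are signal outside the main measurement. They enter no main level. Part of them lay on barcodes of filtered cells. Counted in the pooled matrix, the NIH/3T3 barcodes had Cavin1 in 53.1% of cells, against 52.6% in the split matrix. This count served as an alternative below.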

How the results depend on the processing

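Of 108 recomputed levels of single genes, 107 stayed within their counting interval, the exception being Cavin2 in NIH/3T3, at 150.1 CPM as a mean over cells. Of 108 recomputed shares of cells, 72 did. The share of cells with a UMI of any of them in N2a was 35.8% at a minimum of 2000 UMIs, 30.0% at 500 UMIs, 37.3% in cells called by the default rule of STARsolo, 30.2% without the 5% of cells with the most UMIs, and 6.46% after thinning. In NIH/3T3 it was 96.6% at 2000 UMIs, 90.0% at 500 UMIs, 95.3% under the rule of STARsolo, and 56.1% after thinning, and in mESCs 1.36% after thinning. Depth sets these shares by construction. The summed NIH/3T3 level was 932.0 CPM with mitochondrial UMIs left out of the total, which makes the total smaller. The number of the 6 genes at least 4-fold higher in NIH/3T3 than in both lines was 5 under each other cell filter, pseudocount, and filter on low values, 6 at 2-fold, and 4 at 10-fold. Over all genes the count was 692, against 1369 at 2-fold, 332 at 10-fold, and 430 with a pseudocount of 5 CPM. The ratio of the Nlgn1-led cluster to the other NIH/3T3 cells was also computed with 4 other cluster settings chosen after seeing the data. It ranged from 2.33 to 2.39 for Cavin2. These clusters held 98.2% to 99.5% of the cells of the main one, so the ratios are not independent of the main ratio. Each line was 1 sample within 1 shared library, so differences between cultures of a line could not be measured. A gene with under 10 UMIs in a line has a wide interval. No paired analysis was possible because each line has 1 sample, and no result comes from a test.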
